A study of Mus musculus with 6 samples.

Results

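The 10 genes described here belong to the integrated stress response led by the transcription factor Atf4 and were chosen by symbol: Atf4 itself, its partner Ddit3 (CHOP), the feedback regulators and stress effectors Trib3, Chac1, Sesn2 and Ddit4, and the enzymes Asns, Psat1, Phgdh and Pck2. They were taken from a table of 52962 gene records and 141196 transcripts, where they held 44 transcripts in 11 gene records, the symbol Ddit3 being carried by a second record with no read. Of the 44 transcripts, 21 had at least 1 read with a tail estimate and 23 had none. The 14 with at least 10 such reads in every library held 99.2% of the 9171 tail reads of these genes. Trib3 had no transcript above that minimum.

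The integrated stress response is the pathway by which cells slow protein synthesis when amino acids run short, when unfolded protein builds up in the endoplasmic reticulum, or under other stresses. Kinases phosphorylate the initiation factor eIF2, most translation falls, and the mRNA of the transcription factor Atf4 is translated more because of short reading frames upstream of its start codon. Atf4 protein then switches on genes for amino acid synthesis and uptake, for redox balance and for the later arrest or death of stressed cells. Poly(A) tails are added to mRNAs as they are made and are shortened in the cytoplasm.

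The study sequenced poly(A) RNA from the brain cortex of C57BL/6 mice directly on a nanopore instrument, in 3 wild type (WT) libraries and 3 libraries from mice labelled as Fmr1 knockout (KO). The product of Fmr1, FMRP, binds mRNAs and holds back their translation, and the deposited table centres on poly(A) tails. The labels do not give the age or sex of the mice, and they do not say whether the libraries of a group came from separate animals, so p-values measure only the spread between these libraries, which may be technical. The labels name no other treatment or stress.

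Libraries held from 2404074 to 3849077 tail reads, with KO replicate 2 the shallowest. Fmr1 was at 41.7, 45.1 and 46.4 CPM (tail reads scaled to a common library size) in WT and at 10.9, 11.8 and 8.22 CPM in KO, lower in every library labelled knockout. All 6 neuron markers and all 7 astrocyte markers checked had reads. Summed choroid plexus markers were at 441, 35.9 and 847 CPM in WT and between 13.9 and 28.3 CPM in KO, with 1 of the 2 such markers that could be tested called, and none of the neuron, astrocyte, oligodendrocyte, microglia, vessel or blood markers tested was called different (edgeR, adjusted p of 0.05). In bulk tissue, fewer cells of a type and less RNA per cell cannot be told apart.

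Atf4 protein binds a composite element in the promoters of its target genes. A form of it, TGATGNAA, was searched on both strands of the RefSeq promoters (GRCm38.p6, 250 bases before to 50 after each start site), which were on file for all 10 genes. It was found in 4 of them, Asns, Chac1, Trib3 and Pck2, and in 3.97% of all 32851 promoters in the table. The 30-base windows that hold it are shown, each 5′ to 3′ on the strand of the gene and with the element in capitals, because they show where the element lies in those 4 promoters.
Asns (chr6:7693214-7693243, minus strand): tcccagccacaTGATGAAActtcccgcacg
Chac1 (chr2:119351038-119351067, plus strand): cttccctgccgTTGCATCActcctgccagg
Trib3 (chr2:152344028-152344057, minus strand): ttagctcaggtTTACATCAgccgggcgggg
Pck2 (chr14:55540152-55540181, plus strand): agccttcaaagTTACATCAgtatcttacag
The element reads in the direction of the gene in Asns and in the opposite direction in the other 3. Relative to the start site, the first capital of each window as printed lay at position -23 in Asns, -103 in Pck2, -193 in Chac1 and 15 in Trib3. A match is a run of letters, not a measured binding site, and its absence from the other 6 windows says only that these letters are not there.

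Atf4 mRNA was higher in the knockout. Atf4 (ENSMUSG00000042406, chromosome 15, 80255184 to 80257541, mm10) was at 86.2, 72.1 and 73.9 CPM in the WT libraries and at 94.0, 99.1 and 113 CPM in the KO libraries. All 3 KO values lay above all 3 WT values, with the smallest gap between WT replicate 1 and KO replicate 1. The mean rose from 77.4 ± 7.66 to 102 ± 9.82 CPM (SD, n = 3 each), a log2 change of 0.41 ± 0.09 (SE) or 1.32-fold (edgeR, adjusted p = 0.0170). It was the only gene of the 9 tested that passed, where 1.03% of all 12543 genes passed and 0.574% passed as higher in KO.

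The Atf4 call depended on which libraries were in the fit. It was kept without WT replicate 1 (edgeR, adjusted p = 0.000467) or KO replicate 1 (0.0209). It was lost without WT replicate 2 (edgeR, adjusted p = 0.106), WT replicate 3 (0.0696), KO replicate 2 (0.0573) and KO replicate 3 (0.167), and with limma on log2(RPM + 1) (0.155), while its log2 change stayed between 0.32 and 0.49 in every setting run. Among the WT libraries, replicates 2 and 3 had the lowest and the highest choroid plexus sum (35.9 and 847 CPM) with Atf4 at 72.1 and 73.9 CPM, and replicate 1, in between at 441 CPM, had the highest Atf4 level. The part that choroid plexus RNA plays in the Atf4 difference was not tested.

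**Figure D1:**
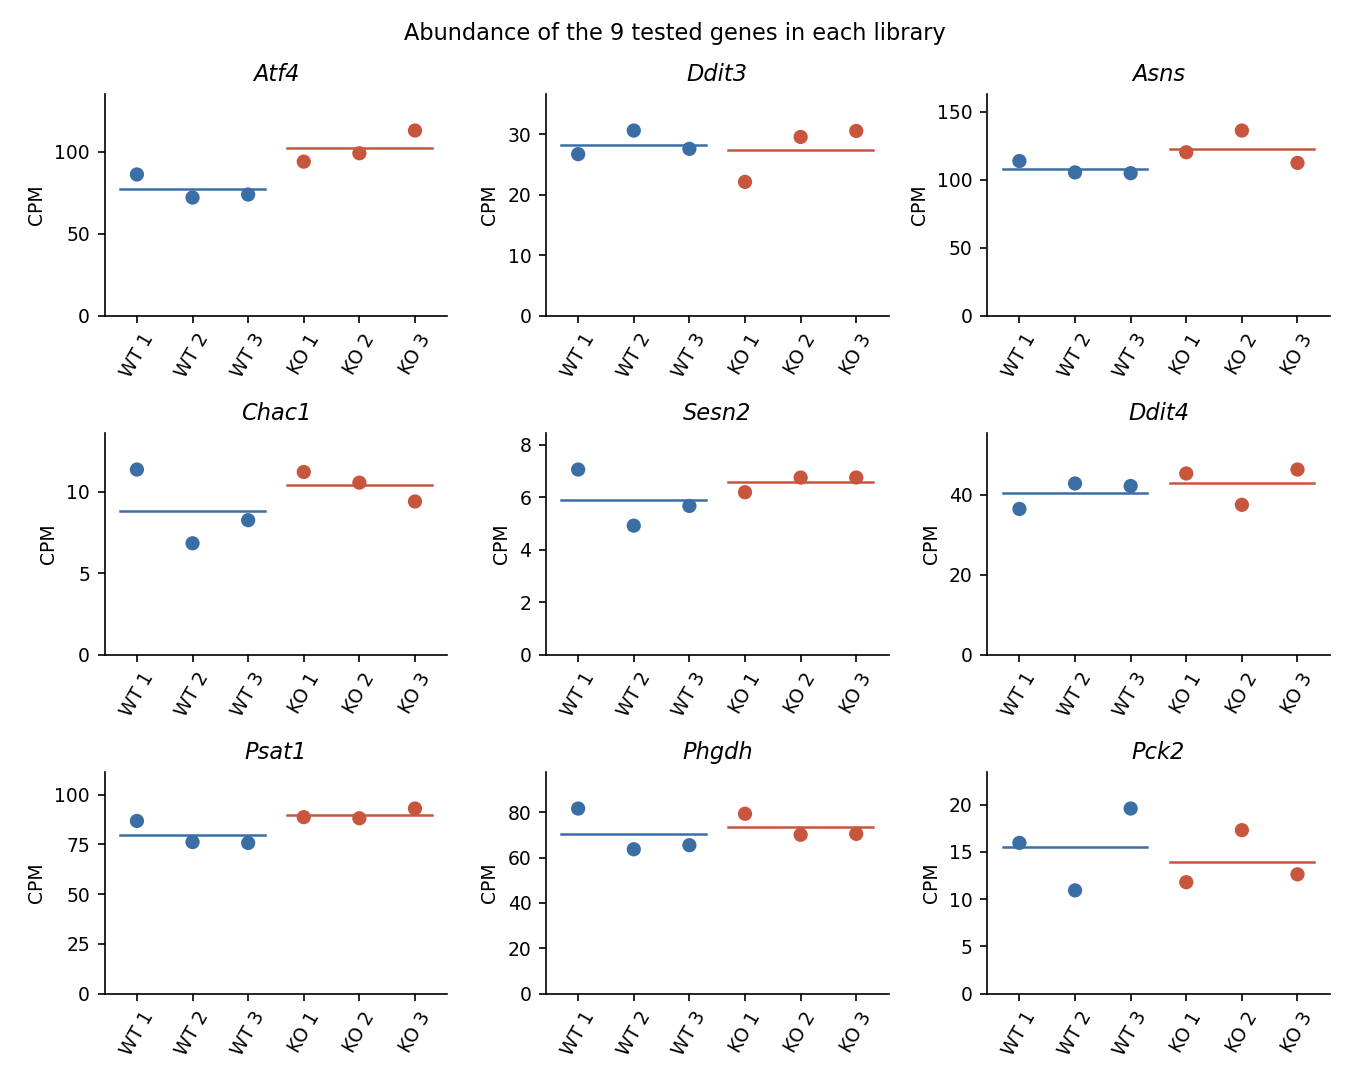
Abundance in CPM (tail reads scaled to library size) of the 9 tested genes in each of 3 WT (blue) and 3 KO (red) libraries; each point is a library and each line a group mean, on axes that start at 0. The KO points of Atf4 (94.0 to 113 CPM) all lie above its WT points (72.1 to 86.2 CPM), and those of most other genes overlap.

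Both measured forms of the Atf4 transcript had like changes. The coding form of 1725 nt held 90.9 ± 2.04% of Atf4 tail reads in WT and 91.2 ± 2.31% in KO, and the form of 2019 nt with a retained intron held the rest (two-sided exact permutation p = 0.9, n = 3 each). The coding form was at 80.3, 65.0 and 69.0 CPM in WT and at 84.6, 94.1 and 104 CPM in KO. Its log2 change was 0.40 ± 0.10, which did not pass over the 19933 transcripts tested (edgeR, adjusted p = 0.0532). None of the 14 transcripts of these genes passed there, with 3 at an unadjusted p under 0.05, where 0.517% of all transcripts passed and 10% had such an unadjusted p. With DESeq2, 1 of them passed, this form (adjusted p = 0.0498). It also passed with the replicate number as a block (adjusted p = 0.0197). In 3 of the 14 the KO values all lay above the WT values, as in 8.07% of all transcripts. The retained-intron form changed by log2 0.40 ± 0.24 (adjusted p = 0.62). Both forms end at the same annotated base, and a read that stops short of the intron cannot tell them apart.

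In the authors' deposited table, the log2 change of the coding Atf4 transcript was 0.56 ± 0.14 (SE) as KO over WT, with an unadjusted p of 3.13e-05. The header gives no direction, so the sign was set by Fmr1, whose most significant transcript is then at -2.86. An unadjusted p under 0.05 was given for 1.22% of the 56942 transcripts with a p. In the authors' deposited table the 2016 nt form of Asns was the other transcript of these genes below it (log2 0.48 ± 0.23, p = 0.0359). Adjusted here over all transcripts with a p, the authors' deposited table gave 0.0594 for Atf4.

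Ddit3 (chromosome 10, 127290774 to 127296288) encodes CHOP, the transcription factor that Atf4 induces under lasting stress and that pairs with it on some promoters. It was at 26.7, 30.6 and 27.6 CPM in WT and at 22.1, 29.5 and 30.5 CPM in KO. The groups overlapped fully, with the lowest value in KO replicate 1 (log2 -0.06 ± 0.14, edgeR adjusted p = 0.91).

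Trib3 (chromosome 2, 152337422 to 152344032), a pseudokinase that feeds back on Atf4, was barely detected in either genotype. It had 2, 2 and 4 tail reads in the WT libraries and 1 in each KO library. It was below the filter on low counts of the edgeR fit. It was not called without that filter or with DESeq2, and the authors' deposited table gave it a log2 change of -1.74 ± 1.35 (SE, unadjusted p = 0.199). A difference was not detectable at this depth. Its relatives Trib1, with 404 tail reads over the 6 libraries, and Trib2, with 573, were measured and did not pass (edgeR, adjusted p = 0.88 and 0.48).

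The enzymes of amino acid synthesis lay slightly higher in KO, and none passed. Asns (chromosome 6, 7675169 to 7693254) makes asparagine from aspartate. It was at 114, 105 and 105 CPM in WT and at 120.2, 136 and 112 CPM in KO (log2 0.18 ± 0.08, unadjusted p = 0.0324, edgeR adjusted p = 0.34). KO replicate 3 lay below WT replicate 1, so the groups overlapped.

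Psat1 (chromosome 19, 15904678 to 15947337), the aminotransferase of the serine pathway, was at 86.8, 76.2 and 75.7 CPM in WT and at 88.7, 88.1 and 93.0 CPM in KO. All its KO values lay above its WT values, closest between WT replicate 1 and KO replicate 2. The log2 change was 0.18 ± 0.08 (unadjusted p = 0.0338, edgeR adjusted p = 0.34). Such a separation in the same direction was seen in 9.12% of all genes tested.

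Phgdh (chromosome 3, 98313170 to 98339990), the dehydrogenase that opens the serine pathway, was at 81.6, 63.6 and 65.4 CPM in WT and at 79.3, 70.0 and 70.4 CPM in KO. The groups overlapped, with replicate 1 the highest of each (log2 0.07 ± 0.10, edgeR adjusted p = 0.81). Its direction turned to log2 -0.03 on reads recovered from the authors' RPM. Phgdh and Psat1 are known as astrocyte-rich in brain, and summed astrocyte markers were at 1933 to 2244 CPM in WT and 1917 to 2037 CPM in KO.

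Pck2 (chromosome 14, 55540266 to 55551242), the mitochondrial enzyme that makes phosphoenolpyruvate, was the only tested enzyme with a lower mean in KO. It was at 15.9, 10.9 and 19.6 CPM in WT and at 11.8, 17.3 and 12.6 CPM in KO, with wide overlap (log2 -0.19 ± 0.20, edgeR adjusted p = 0.75). Its cytosolic relative Pck1 had 0 reads in all 6 libraries, which allows up to 0.149 CPM over their pooled reads.

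The remaining stress effectors did not pass either. Chac1 (chromosome 2, 119351229 to 119354381) breaks down glutathione and was at 11.3, 6.83 and 8.24 CPM in WT and at 11.2, 10.5 and 9.39 CPM in KO. Its log2 change was 0.25 ± 0.22 (edgeR, adjusted p = 0.69), and the highest value of all was WT replicate 1. Sesn2 (chromosome 4, 132492032 to 132510501), which restrains mTORC1 when leucine is scarce, was at 7.05, 4.92 and 5.67 CPM in WT and at 6.19, 6.75 and 6.75 CPM in KO. Ddit4 (REDD1; chromosome 10, 59949669 to 59951834), another mTORC1 inhibitor, was at 36.5, 42.9 and 42.2 CPM in WT and at 45.4, 37.5 and 46.4 CPM in KO. Their groups overlapped, with log2 changes of 0.16 ± 0.26 for Sesn2 (edgeR, adjusted p = 0.85) and 0.10 ± 0.11 for Ddit4 (adjusted p = 0.77).

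Over the 9 tested genes, 7 had a higher mean in KO and 2 a lower one, with a median log2 change of 0.16, where the median over all genes was 0.00 and 49.4% lay above 0. Atf4, Asns and Psat1 had an unadjusted p under 0.05, as 12.9% of all genes did. Because the genes were chosen with earlier results of these data known, these counts only describe them.

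**Figure D2:**
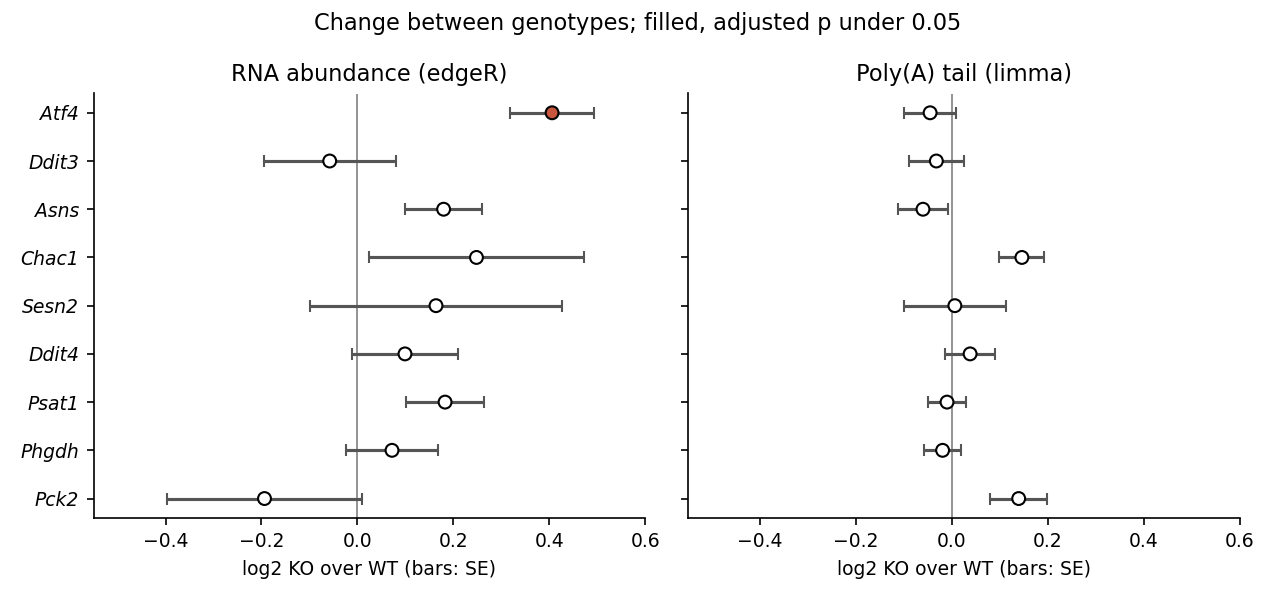
Log2 change from WT to KO, with its standard error, of RNA abundance (left) and poly(A) tail length (right) for the 9 tested genes. A filled point marks an adjusted p under 0.05, which Atf4 alone reached, in abundance (0.41 ± 0.09); no tail reached it.

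The mix of isoforms was measured for the genes with several. Asns had the form of 2016 nt at 19.4, 18.9 and 15.2% of its tail reads in WT and at 21.3, 22.9 and 21.1% in KO. Every KO share lay above every WT share, a difference of 3.94 percentage points (two-sided exact permutation p = 0.1, the smallest that 3 against 3 can give). How often isoform shares lie apart in this way over all genes was not computed. On the authors' RPM the groups overlapped, with the same share at 22.2, 20.7 and 15.98% in WT and at 20.7, 23.5 and 23.6% in KO. That form had a log2 change of 0.46 ± 0.15 in abundance and did not pass (edgeR, adjusted p = 0.25), while the form of 2001 nt changed by log2 0.11 ± 0.09 (adjusted p = 0.75). The forms share their 3′ end and differ in their first exon, which direct RNA reads reach last. Shares of the Psat1 and Ddit3 forms overlapped between genotypes.

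Pck2 reads were spread over 6 of its 13 listed transcripts. The coding forms of 3400 and 4625 nt held 38.8 ± 5.64% and 45.2 ± 7.88% of them in WT, and 40.3 ± 4.66% and 42.1 ± 8.31% in KO (two-sided exact permutation p = 0.6 and 0.7, n = 3 each). Forms with a retained intron held most of the rest.

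Among themselves the 9 genes had tails of quite different length. In WT, the read-weighted mean tail of a gene ran from 112 ± 3.02 nt in Chac1 to 163 ± 8.14 nt in Atf4, where the median over all 11323 genes was 145 nt. Chac1, Ddit3 (112 ± 2.44 nt) and Phgdh (113 ± 1.62 nt) stood at percentiles 5.59, 6.02 and 6.19 of all genes, with overlapping library values. Psat1 (126 ± 0.54 nt), Pck2 (131 ± 10.5 nt), Ddit4 (131 ± 5.43 nt) and Asns (134 ± 0.78 nt) came next, each overlapping its neighbour in that order. Sesn2 (150.5 ± 12.2 nt) and Atf4 had the longest tails, and overlapped each other. The steps from Phgdh to Psat1 and from Asns to Sesn2 were the only neighbours with no shared range. Atf4 stood at percentile 78.0.

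Tail length did not pass a test between genotypes for any of these genes (limma on log2(nt + 1), 0 of 9 genes and 0 of 14 transcripts, with 1 and 2 at an unadjusted p under 0.05). Over all genes and all transcripts tested, 0% passed and 6.55% and 5.84% had an unadjusted p under 0.05. The Atf4 gene had tails at 153, 166 and 168 nt in the WT libraries and at 155, 163 and 155 nt in the KO libraries, so that the higher abundance in KO came with overlapping tails (log2 -0.05 ± 0.05, adjusted p = 0.95). Of the 9 genes, 4 had a longer mean and 5 a shorter one in KO, beside 61.7% shorter among all genes.

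Asns tails were at 135, 133 and 134 nt in WT and at 127, 121 and 137 nt in KO, with more spread in KO. Psat1 was at 127, 126 and 126 nt in WT and at 126, 120.2 and 129.6 nt in KO. Phgdh was at 113, 111 and 114 nt in WT and at 116, 107 and 111 nt in KO. In all 3 enzymes the shortest tail was in KO replicate 2 and the groups overlapped, with differences of -5.32, -0.82 and -1.45 nt (limma, adjusted p = 0.90, 0.98 and 0.98). Psat1 and Phgdh turned to a positive log2 change when each library was centred on its median tail.

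**Figure D3:**
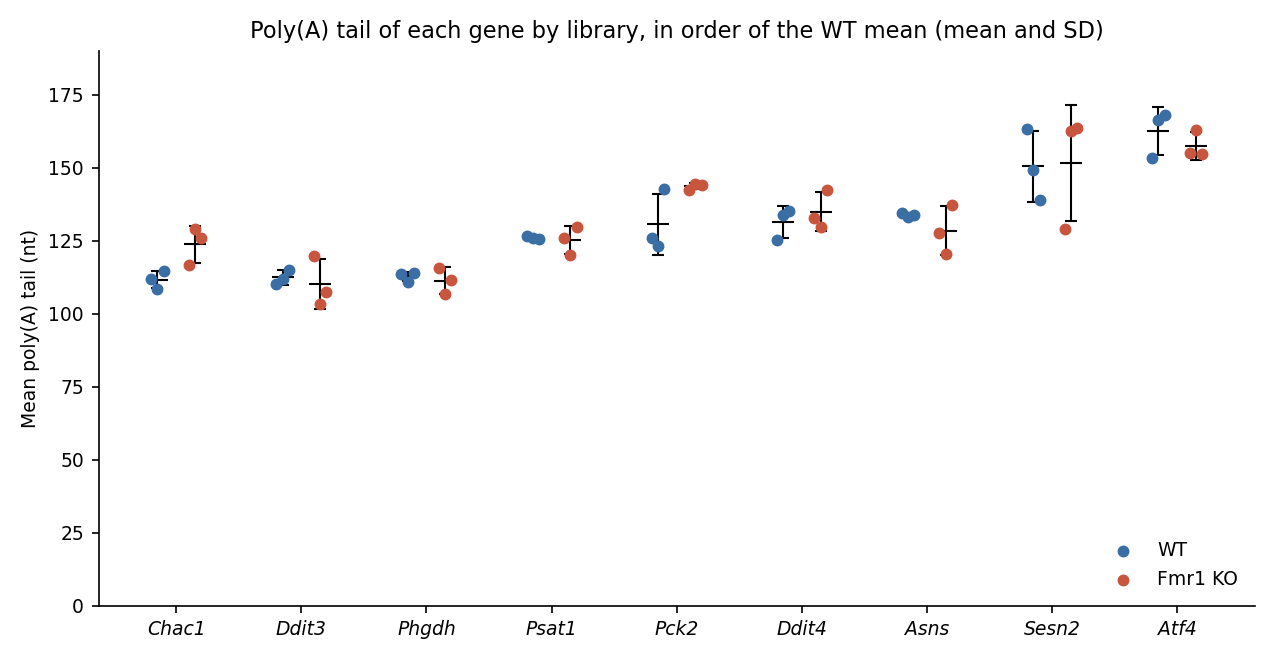
Read-weighted mean poly(A) tail in nt of each gene in each WT (blue) and KO (red) library, with group mean and SD in black, ordered by the WT mean. Chac1 is the gene whose groups do not overlap (109 to 115 nt in WT and 117 to 129 nt in KO), and Atf4 and Sesn2 have the longest tails.

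Chac1 had tails of 112, 109 and 115 nt in WT and of 117, 129 and 126 nt in KO. All 3 KO values lay above all WT values, a difference of 12.1 nt on 25 to 38 reads per library. The log2 change was 0.15 ± 0.05 (limma over genes, unadjusted p = 0.0172, adjusted p = 0.70). Of all genes tested, 3.22% had the groups apart with longer tails in KO. Ddit3 and Ddit4 differed by -2.31 and 3.57 nt and Sesn2 by 1.24 nt, each with overlapping groups.

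Pck2 held the widest tail difference among these transcripts. The form of 3400 nt (ENSMUST00000048781.3) had mean tails of 119, 113 and 122 nt in WT, on 21, 13 and 33 reads, and of 151, 150.4 and 150.2 nt in KO, on 14, 18 and 18 reads. The KO means lay well above the WT means and close to each other, and the table gives no spread among the reads behind each mean. The difference was 32.4 nt, log2 0.35 ± 0.05 (limma, unadjusted p = 0.000143, adjusted p = 0.56). It and Chac1 were the 2 of 14 transcripts with longer tails in every KO library, as 3.41% of all transcripts had. The adjusted p lay between 0.497 and 0.993 over the alternatives. With a variance trend on read number, the log2 change of the 3400 nt form was 0.35 ± 0.13 (limma, unadjusted p = 0.0106). With weights from read number it was 0.34 ± 0.08 (limma, unadjusted p = 0.00122).

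The form of 4625 nt (ENSMUST00000226519.1) did not have that difference. Its tails were at 124, 119 and 145 nt in WT and at 136, 116 and 117 nt in KO, with overlapping groups (log2 -0.07 ± 0.09, limma adjusted p = 0.96). Within a library, the shorter form minus the longer one gave -5.43, -6.00 and -22.8 nt in the WT libraries and 14.9, 34.3 and 33.4 nt in the KO libraries. That difference between forms moved by 38.9 nt from WT to KO (two-sided exact permutation p = 0.1, the smallest possible). It includes the 3400 nt form already named for its tails, so it is not a separate test. The same permutation test gave p = 0.7 for the Atf4 forms, 0.5 and 0.4 for the Psat1 forms and 0.7 for the Asns forms. How often such differences lie apart over all genes was not computed. For Pck2 as a gene the groups overlapped, at 126, 123 and 143 nt in WT and at 142, 144 and 144 nt in KO (limma, adjusted p = 0.77).

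**Figure D4:**
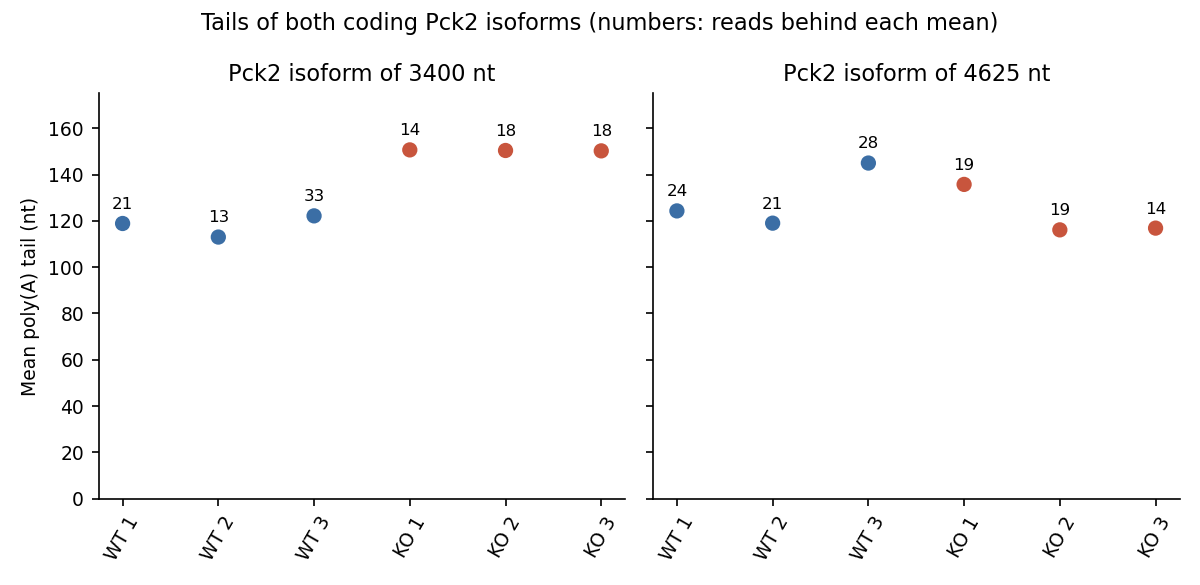
Mean poly(A) tail in nt of both coding Pck2 forms in each WT (blue) and KO (red) library, with the number of reads behind each mean printed above its point. In the form of 3400 nt the KO means are all near 150 nt and the WT means between 113 and 122 nt, while the points of the form of 4625 nt overlap.

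In the annotation both Pck2 forms are the same over the first 3400 nt, and the longer one runs on for 1225 nt in its 3′ untranslated region. The sequences of these forms differ only at the 3′ end. The 30 bases that hold the hexamer read by the cleavage machinery near each end are therefore shown, from GENCODE mouse release 21, with the hexamer in capitals.
Pck2, 3400 nt (chr14:55549988-55550017, plus strand): cacatacacataATTAAAgtgaattttcct
Pck2, 4625 nt (chr14:55551213-55551242, plus strand): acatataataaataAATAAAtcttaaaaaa
The shorter form has ATTAAA starting 18 bases from its end, and the longer one has the common AATAAA more than once in its window, the last copy, in capitals, starting 16 bases from an A-rich end. A read from the shorter form can also be matched to the longer one, whose first part is identical.

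Retained-intron forms did not have uniformly longer or shorter tails than the coding form of their gene. The Atf4 form of 2019 nt was shorter than the coding form in 5 of 6 libraries, with means of 153 ± 1.46 nt in WT and 155 ± 26.1 nt in KO, on 15 to 35 reads per library. The Psat1 form of 1572 nt was longer than the coding form of 2617 nt in 5 of 6 libraries, with means of 131 ± 17.4 nt in WT and 144 ± 25.4 nt in KO. Its annotated 3′ end lies nearer that of the other coding form, of 2291 nt. That coding form had tails of 122, 123 and 132 nt in WT and of 145, 133 and 123 nt in KO. The form of 1572 nt was longer than it in WT replicates 1 and 3 and KO replicate 3, and shorter in the others. Neither retained-intron form differed between genotypes in the test (limma, adjusted p = 0.9999 and 0.94).

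The annotated transcripts differ in their untranslated regions and in the hexamer near their 3′ end. Whether tail length or abundance goes with these features was not tested. The coding Atf4 form has a 5′ untranslated region of 594 nt with 3 ATG triplets before its start codon, and a 3′ untranslated region of 81 nt. Ddit3 has 2 upstream ATG triplets in 186 nt, and the Asns form of 2001 nt also has 2. The Asns form of 2016 nt, Sesn2, both coding Psat1 forms and the Pck2 form of 4625 nt have 1 each, while Chac1, Ddit4, Phgdh and the Pck2 form of 3400 nt have 0. The Pck2 forms differ in this count only by their annotated start codons, after 219 nt in the longer form and 138 nt in the shorter. Their sequence is the same there, and the upstream ATG of the longer form is the annotated start codon of the shorter. Chac1, Phgdh, Ddit3 and the Psat1 form of 2617 nt hold neither AATAAA nor ATTAAA in their last 50 bases as annotated. Other hexamers were not searched. The other coding forms tested hold one of them.

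The wider pathway was read from 7 gene lists. These were eIF2 kinases and eIF2 machinery, partner factors, amino acid transporters, and enzymes of serine, one-carbon and related amino acid metabolism. The others were aminoacyl-tRNA synthetases, endoplasmic reticulum stress genes and relatives of the 10 genes. Of their 92 genes tested for abundance, 1 rose, 0 fell and 64 had a higher mean in KO, with a median log2 change of 0.08. Over all genes tested, 1.03% were called, 0.574% were called higher and 49.4% lay above 0. Tails passed for 0 of 90 genes (limma, 0% of all genes). The lists were chosen with earlier results of these data known, so these counts are a description.

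The gene that rose was Sars, the seryl-tRNA synthetase, from 128 ± 7.62 to 158 ± 6.24 CPM (log2 0.30 ± 0.07, edgeR adjusted p = 0.0392). It did not pass with the replicate number as a block (edgeR, adjusted p = 0.0778) or without any 1 library other than WT replicate 1. Nor did it pass with limma on log2(RPM + 1) or log2(RPM + 0.1) (adjusted p = 0.145 and 0.164). Of the 21 genes in the synthetase list, 17 had a higher mean in KO, and 17 had shorter tails, where 61.7% of all genes did. Calr and Hspa5 are chaperones of the endoplasmic reticulum that other branches of the unfolded protein response induce. They had the most reads of 20 endoplasmic reticulum stress genes, of which 15 had a higher mean. Hspa5 went from 209.6 ± 18.6 to 256 ± 20.9 CPM (edgeR, adjusted p = 0.0594, and from 0.00476 to 0.318 over the alternatives). Calr went from 410.1 ± 32.1 to 474 ± 23.7 CPM (edgeR, adjusted p = 0.13, and from 0.0249 to 0.410 over the alternatives).

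Among 15 genes for eIF2 kinases, eIF2, its exchange factor and their regulators, 9 had a higher mean. Impact, which restrains the amino acid sensor Gcn2, went from 132 ± 9.06 to 160.2 ± 15 CPM (edgeR, adjusted p = 0.10, and from 0.0250 to 0.384 over the alternatives). Eif2s2, an eIF2 subunit, went from 79.0 ± 4.58 to 90.7 ± 1.49 CPM (edgeR, adjusted p = 0.27). Partner factors split evenly, 4 up and 4 down in mean, with Nfe2l1 at 149 ± 12.3 and 156 ± 16.05 CPM and Atf2 at 69.9 ± 5.40 and 69.5 ± 2.37 CPM. Of 10 amino acid transporters 7 had a higher mean, with Slc3a2 at 98.1 ± 1.70 and 109.7 ± 3.36 CPM and Slc38a1 at 80.5 ± 9.96 and 78.7 ± 8.29 CPM. Of 12 other enzymes of serine, one-carbon and related amino acid metabolism 7 did, with Got1 at 346 ± 4.91 and 345 ± 13.8 CPM and Srr at 46.4 ± 3.69 and 46.2 ± 2.96 CPM. Of 6 tested relatives, 5 did, with Sesn1 at 46.1 ± 6.01 and 48.6 ± 2.77 CPM and Sesn3 at 60.6 ± 6.75 and 53.3 ± 7.0 CPM. None of these passed in the main edgeR fit.

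Among genes at 20 CPM or more, those whose level followed Atf4 most closely over the 6 libraries were not among the 10. Chac1, Sesn2, Pck2 and Trib3 lay below that level and were not compared. Of 6814 genes at 20 CPM or more, the highest Pearson correlations of log2(CPM + 1) with Atf4 were those of Lnpk (0.988), 2310057M21Rik (0.987) and Vps26c (0.983), none of which passed between genotypes. Psat1 came 20th with 0.957, ahead of Asns (0.602), Phgdh (0.419), Ddit4 (0.172) and Ddit3 (-0.01). These correlations rest on 6 libraries in 2 groups and share the scaling of each library, so they are a description.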

How the data were processed

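Per the labels' protocols, poly(A) RNA of mouse brain cortex was sequenced with a direct RNA kit on a PromethION instrument. Per the file headers, the authors deposited for every transcript and library a mean tail in nt, the count of reads behind it and an RPM abundance, and a DESeq2 log2 fold change with SE, score and p-value. Tools listed in the submitters' processing notes are Salmon 1.5.2, SAMtools 1.9, minimap2 2.17 and DESeq2, with the build mm10 and no roles. How tails were estimated was not given in the sources used. The direction of the deposited log2 values is not stated, and the deposited p-value is unadjusted. Dividing the deposited RPM values by the value of 1 read gave whole numbers, within 0.01, for 99.9% of them in WT replicate 1 and 100% in each other library. Some deposited tail read counts sit on transcripts listed at 0 RPM.

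Tails were tested as log2(nt + 1) with limma 3.58.1 (variance trend) at 10 or more reads in each library, per transcript and per gene as a read-weighted mean. Abundance was tested on the tail read counts by edgeR 4.0.16 with its quasi-likelihood test, after TMM scaling and filterByExpr, and the SE is the log2 change over the root of F. All adjusted p-values are Benjamini-Hochberg over all features tested, with a threshold of 0.05. CPM are scaled by TMM. DESeq2 1.42.0 was an alternative, as was edgeR on whole reads recovered from RPM, which was added after seeing the data. The tests were tried on simulated data. Coordinates come from GENCODE mouse release 21 on GRCm38, which held 97.6% of the transcript identifiers, and whose release may not be the authors'.

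The 10 genes and the gene lists were chosen with earlier results of these data known. All 10 genes were named. Each list contributed the genes past the threshold, at most 4, or otherwise the 2 with most reads, and the 3 genes most like Atf4 were named at 20 CPM or more.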

Additional observations from a re-analysis of the deposited data

How the results depend on the processing

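Same-numbered WT and KO libraries did not vary together as a whole, which cannot show whether the replicate numbers pair them for some genes. Over all genes tested, same-numbered WT and KO libraries had deviations from their group means with Pearson correlations of 0.025, -0.065 and 0.048 in abundance. Over all transcripts tested for tails, these correlations were 0.021, 0.0037 and 0.011. With the replicate block, 1 of the 9 genes was called for abundance (Atf4, adjusted p = 0.0483), as without it, and 1 of the 14 transcripts in place of 0 (the coding Atf4 form, adjusted p = 0.0197). That form was also called with DESeq2 (1 transcript), without the filter on low counts (1) and on reads recovered from RPM (1). limma on log2(RPM + 1) or log2(RPM + 0.1) called 0 of the 9 genes. Leaving out single libraries gave 0 to 1 genes and 0 to 1 transcripts called for abundance and 0 for tails. No tail setting called any of these genes or transcripts, though a variance trend on read number called 12 of all genes and 11 of all transcripts. Over all genes, the 129 abundance calls became 92 with the block, 101 of 12808 on recovered reads, 81 with DESeq2, 249 without the filter, 40 and 33 with limma on RPM + 1 and RPM + 0.1, and 57 to 206 without single libraries. The 103 transcript calls became 171 with the block, 180 without the filter, 34 and 24 with limma, and 44 to 163 without single libraries. The cause of these differences was not tested.

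Other uncalled results turned direction, at small sizes. Centring libraries gave tail changes of log2 0.011 for Psat1 and 0.0016 for Phgdh, and weights gave -0.029 for the retained-intron Atf4 form. In abundance, limma at RPM + 1, at RPM + 0.1 and edgeR on recovered reads gave Ddit3 0.024, 0.025 and 0.067, Phgdh -0.070, -0.071 and -0.027, and Srr 0.015, 0.015 and 0.055. Both limma settings gave -0.0088 and -0.0074 for the 2291 nt Psat1 form. Recovered reads gave 0.031 for Atf2, and DESeq2 and no filter gave 0.0011 and 0.0010 for Got1.

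Leaving out single libraries turned further uncalled values. In tails, the log2 ranges were -0.0042 to 0.217 for the Psat1 form of 1572 nt, -0.123 to 0.110 for the retained-intron Atf4 form, -0.146 to 0.011 for the Pck2 form of 4625 nt, -0.00068 to 0.066 for Ddit4, -0.035 to 0.019 for Psat1, -0.093 to 0.013 for Ddit3, -0.052 to 0.119 for Sesn2 and -0.048 to 0.010 for Phgdh. In abundance they were -0.159 to 0.089 for Ddit3, -0.394 to 0.029 for Pck2, -0.021 to 0.123 for Nfe2l1, -0.049 to 0.053 for Atf2, -0.066 to 0.089 for Slc38a1, -0.028 to 0.027 for Got1, -0.076 to 0.038 for Srr, -0.0071 to 0.176 for Sesn1, -0.143 to 0.312 and -0.113 to 0.266 for the Psat1 forms of 2291 and 1572 nt, and -0.460 to 0.154 for the Pck2 form of 3400 nt. The KO minus WT share of the Pck2 forms ran from -1.65 to 4.11 percentage points (3400 nt) and -7.19 to 1.76 (4625 nt). The tail change of the Pck2 form of 3400 nt stayed between log2 0.32 and 0.37. Depth limits Trib3, Sesn2, Chac1, the Pck2 forms and the retained-intron forms of Psat1 and Atf4.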
